A study of Mus musculus with 6 samples.

Results

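The 7 genes described here mark Schwann cells, the glia that ensheathe the axons of peripheral nerves, or build the myelin those cells make: Mbp, Pmp22, Prx, S100b, Cdh19, Ncam1 and Ngfr. They were chosen by symbol, and each is 1 row among the 19309 genes of the deposited expression table. Both cheeks of 3 C57BL/6 mice, 6 to 8 weeks old, were sequenced as whole tissue, with 1 library for each cheek. The AEW group (3 libraries) is the shaved right cheek, wiped 2 times a day with acetone and ether in equal volumes for 30 s followed by 30 s of water, which gives dry skin. The vehicle group (3 libraries) is the left cheek of the same mice, wiped with water for 60 s. Tissue was taken on day 12, so both groups share the strain, the housing and the days of wiping, and the right side was the treated one in every mouse. The series title names the proteinase MMP9, and the comparison asks what the dry skin treatment does to transcript levels.

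Schwann cells that wrap large axons wind their membrane into compact myelin, held together by a small set of abundant proteins, while others ensheathe bundles of thin axons, among them the fibres for itch and pain, without making myelin. In skin both kinds run in the dermal nerves, and muscle under the skin holds nerves of its own. Myelin genes are under the shared control of the transcription factors Sox10 and Egr2, with signals from neuregulin on the axon reaching the receptor pair Erbb2 and Erbb3.

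In AEW skin all 7 genes had a lower mean than in vehicle skin, by a median log2 fold change of -0.51, beside 0.014 over the 15109 genes tested. Of the 7, only Cdh19 passed an adjusted p of 0.05 in edgeR's quasi-likelihood test with group alone, and it was lower, so 1 of 7 was called lower where 6.8% of all tested genes were and 0 of 7 called higher where 4.85% were. With an unadjusted p under 0.05 there were 4 lower, Cdh19, Ngfr, Mbp and S100b, against 16% of all tested genes. With the mouse as a block, a fit that uses the pairing of the cheeks, 0 of 7 were called, against 3.89% of all genes called lower and 1.99% called higher. In that fit 3 of the 7, Mbp, Cdh19 and Ngfr, were lower with an unadjusted p under 0.05, against 14.6% of all tested genes. The AEW libraries lay below all vehicle libraries, with no overlap, in 4 of the 7, Pmp22, S100b, Cdh19 and Ngfr, as they did in 19.5% of the genes tested. Taken 1 library at a time, AEW mouse 1 was below all 3 vehicle libraries in 6 of the 7 genes (37.7% of all tested genes), AEW mouse 2 in 7 of 7 (37.2%) and AEW mouse 3 in 5 of 7 (34.1%). Fewer Schwann cells, less RNA of these genes per cell and a different share of other cells that express them cannot be told apart in whole skin.

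**Figure D1:**
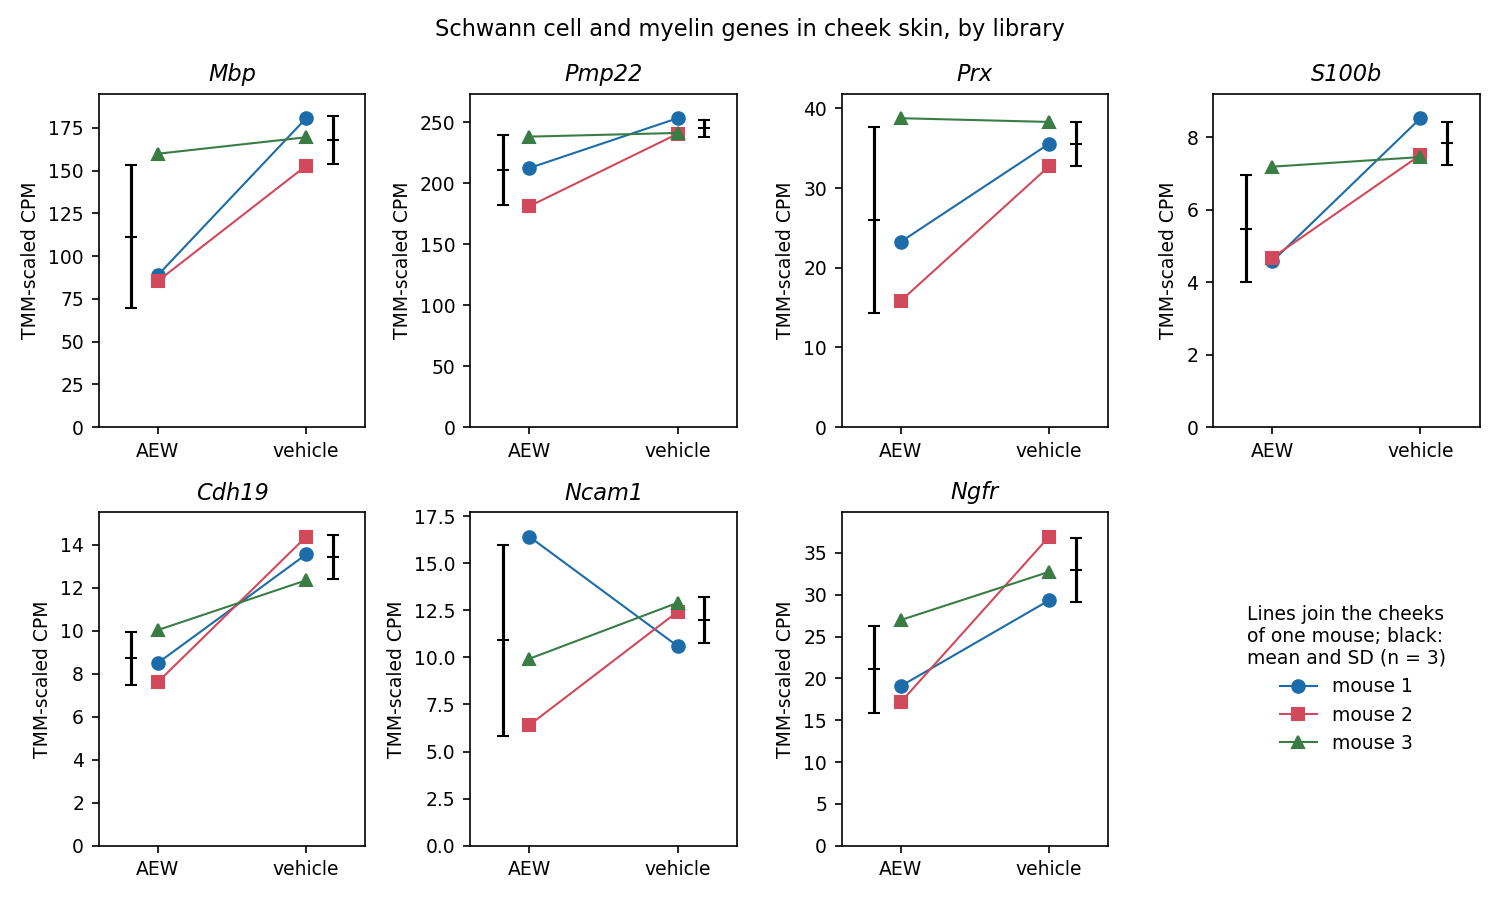
Level of each of the 7 genes in TMM-scaled CPM (vertical axis, from 0) in AEW and vehicle skin, with 1 point for each library, lines joining the cheeks of 1 mouse and black bars for the mean and SD of 3 libraries. AEW mouse 3 (triangles) stays near the vehicle level for Mbp, Pmp22, Prx and S100b, and Ncam1 is the gene with a higher AEW than vehicle value in mouse 1.

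Mbp encodes myelin basic protein, which joins the inner faces of the membrane layers of compact myelin; the same locus also gives transcripts in cells other than glia. Its level, in TMM-scaled CPM (counts per library total, scaled), was 88.9, 85.5 and 160 in AEW skin of mice 1, 2 and 3, against 181, 153 and 170 in the vehicle skin of the same mice. The AEW libraries of mice 1 and 2 were far below every vehicle library, whereas that of mouse 3 lay within the vehicle range. Mbp averaged 111 ± 42.0 CPM in AEW skin and 168 ± 14.0 CPM in vehicle skin (SD, n = 3 each), a log2 fold change of -0.59 with a 95% interval from -1.16 to -0.016 that did not pass the edgeR threshold (adjusted p = 0.154). Mouse 1 had an AEW to vehicle ratio of 0.492 for Mbp (95% interval 0.465 to 0.522, exact binomial, for counting error only). Mouse 2 had 0.559 (0.526 to 0.595), and mouse 3 had 0.943 (0.897 to 0.992). Without the AEW library of mouse 3 the log2 fold change of Mbp was -0.94 and passed the threshold (adjusted p = 0.0237, edgeR). With any other 1 of the 6 libraries left out it was between -0.43 and -0.65 and did not pass (edgeR adjusted p between 0.21 and 0.326).

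Pmp22 encodes a protein of compact myelin that crosses the membrane several times and whose dosage has to be exact for myelin to be stable. Fibroblasts and epithelia express it too. It stood at 212, 181 and 238 CPM in AEW skin of mice 1, 2 and 3, against 253, 240 and 241 CPM in vehicle skin. The groups did not overlap, but AEW mouse 3 and the vehicle libraries were nearly level. The difference was the smallest but 1 of the 7, a log2 fold change of -0.22 with a standard error of 0.12 (edgeR adjusted p = 0.256).

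Prx encodes periaxin, which ties the outer membrane of the myelin sheath to the surrounding matrix through Drp2 and dystroglycan. Prx was at 23.3, 15.9 and 38.8 CPM in AEW skin of mice 1, 2 and 3, against 35.6, 32.7 and 38.3 CPM in vehicle skin. The AEW library of mouse 3 was the highest of all 6, and those of mice 1 and 2 the lowest. Within AEW skin the highest library held 2.45 times the lowest, while within vehicle skin the same ratio was 1.17. The log2 fold change of -0.45 had a 95% interval from -1.14 to 0.24 (edgeR adjusted p = 0.34), which covers both no change and more than a halving. With 1 library left out it ranged from -0.86 without AEW mouse 3 (edgeR adjusted p = 0.0549) to -0.20 without AEW mouse 2 (adjusted p = 0.602), and it passed in 0 of the 6 fits.

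S100b, a calcium-binding protein used as a Schwann cell marker and also made by adipocytes and melanocytes, stood at 4.57, 4.67 and 7.19 CPM in AEW skin of mice 1, 2 and 3. Vehicle skin of the same mice had 8.52, 7.51 and 7.45 CPM. The groups did not overlap, and AEW mouse 3 again lay close to the vehicle libraries. The log2 fold change was -0.51 ± 0.22 (SE, edgeR adjusted p = 0.161), on 89 to 139 estimated counts in each AEW library, the fewest of the 7 genes in AEW mice 1 to 3.

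Cdh19, a cadherin of the Schwann cell lineage, was the 1 gene called. It stood at 8.50, 7.61 and 10.03 CPM in AEW skin of mice 1, 2 and 3, against 13.5, 14.4 and 12.3 CPM in vehicle skin. Every AEW library lay below every vehicle library, mouse 3 included, and the spread in both groups was small. Cdh19 fell to 8.71 ± 1.22 CPM in AEW skin, against 13.4 ± 1.02 CPM in vehicle skin (SD, n = 3 each), a log2 fold change of -0.62 ± 0.15 (SE, edgeR adjusted p = 0.0422). In the blocked fit the call was lost (log2 fold change -0.63, edgeR adjusted p = 0.109), and it was kept in 1 of 6 fits with a single library removed, the one without AEW mouse 3 (adjusted p = 0.0498). In the other 5 the log2 fold change was between -0.54 and -0.68, with adjusted p between 0.0523 and 0.129.

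Ngfr and Ncam1 are associated with Schwann cells that make no myelin and with immature and injured ones. Ngfr encodes the low-affinity neurotrophin receptor, which other skin cells such as those of hair follicles also carry. It stood at 19.1, 17.2 and 27.0 CPM in AEW skin of mice 1, 2 and 3, against 29.3, 36.9 and 32.7 CPM in vehicle skin. All AEW libraries lay below all vehicle libraries, by a log2 fold change of -0.65 with a 95% interval from -1.08 to -0.22, and the test narrowly missed its threshold (edgeR adjusted p = 0.0633). Ngfr passed it without AEW mouse 3 (log2 fold change -0.86, adjusted p = 0.0306) and in none of the other 5 fits with 1 library left out (-0.52 to -0.73, edgeR adjusted p between 0.0936 and 0.187).

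Ncam1, the neural cell adhesion molecule, which muscle fibres and their satellite cells express besides nerve, did not follow the others. It stood at 16.4, 6.41 and 9.93 CPM in AEW skin of mice 1, 2 and 3, against 10.6, 12.4 and 12.9 CPM in vehicle skin. AEW mouse 1 was the highest of the 6 libraries and AEW mouse 2 the lowest, so the groups overlapped fully. The AEW to vehicle ratio for mouse 1 was 1.55 (95% interval 1.29 to 1.86, exact binomial), while mouse 2 had 0.516 (0.411 to 0.645) and mouse 3 had 0.770 (0.632 to 0.936). The log2 fold change of -0.13 ± 0.32 (SE) had a 95% interval from -0.88 to 0.62, which covers both directions (edgeR adjusted p = 0.811), and it was 0.14 without AEW mouse 2.

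**Figure D2:**
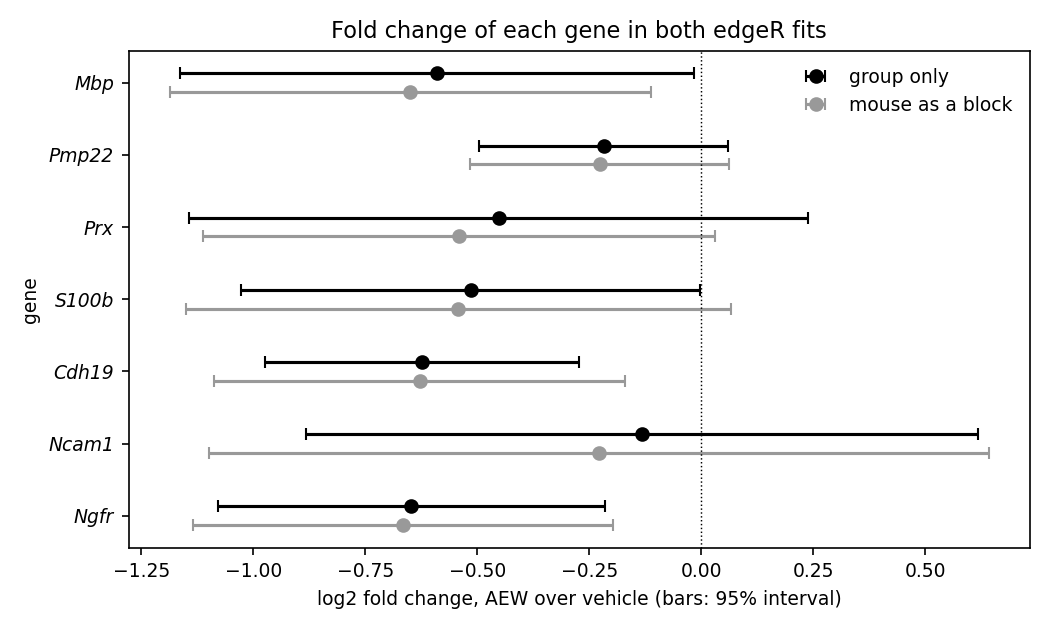
Log2 fold change of AEW over vehicle (horizontal axis) for the 7 genes, with 95% intervals, from the edgeR fit with group alone (black) and with the mouse as a block (grey). All 7 estimates lie below 0 in both fits, and the intervals of Cdh19, Ngfr and Mbp exclude 0 in both.

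The order of the genes by level per transcript length was set by the deposited TPM values. In AEW skin Pmp22 averaged 199 ± 35.4 TPM, Mbp 84.9 ± 36.5 TPM, Ngfr 10.6 ± 2.92 TPM and Prx 9.16 ± 4.43 TPM (SD, n = 3). S100b followed at 5.72 ± 1.68 TPM, Cdh19 at 3.53 ± 0.62 TPM and Ncam1 at 3.10 ± 1.49 TPM in AEW skin. In vehicle skin the order was the same, with 222 ± 2.76 TPM for Pmp22, 125 ± 9.12 TPM for Mbp, 15.8 ± 2.09 TPM for Ngfr and 11.9 ± 0.72 TPM for Prx. S100b, Cdh19 and Ncam1 averaged 7.81 ± 0.49, 5.21 ± 0.46 and 3.29 ± 0.39 TPM in vehicle skin. In vehicle skin no neighbours in this order overlapped, whereas in AEW skin Ngfr overlapped with Prx, Prx with S100b, and Cdh19 with Ncam1. Pmp22 and Mbp, both of compact myelin, were the most abundant per length in both groups.

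The 3 mice differed in these genes. The AEW to vehicle ratio was below 1 in 6 of the 7 genes in mouse 1 (50.7% of all tested genes), in 7 of 7 in mouse 2 (50.8%) and in 6 of 7 in mouse 3 (49.4%). In 5 of the 7 it was below 1 in all 3 mice, as in 26.9% of the genes tested. As a median over the 7 genes, mouse 1 had a log2 ratio of -0.62, mouse 2 one of -0.91 and mouse 3 one of -0.084. With 1 library for each cheek, the difference between mice cannot be tested. Leaving out both cheeks of mouse 3, an alternative added after the data were seen, gave log2 fold changes of -0.94 for Mbp, -0.87 for Ngfr, -0.80 for Prx and -0.79 for both S100b and Cdh19. In the same fit Pmp22 had -0.33 and Ncam1 -0.012, and with 4 libraries left edgeR called 0 of 15164 genes in either direction, and 2578 had an unadjusted p under 0.05. DESeq2 on those 4 libraries called 2 of the 7 lower, Mbp and Ngfr, where 3.48% of all genes were, and 0 higher, where 2.2% were.

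**Figure D3:**
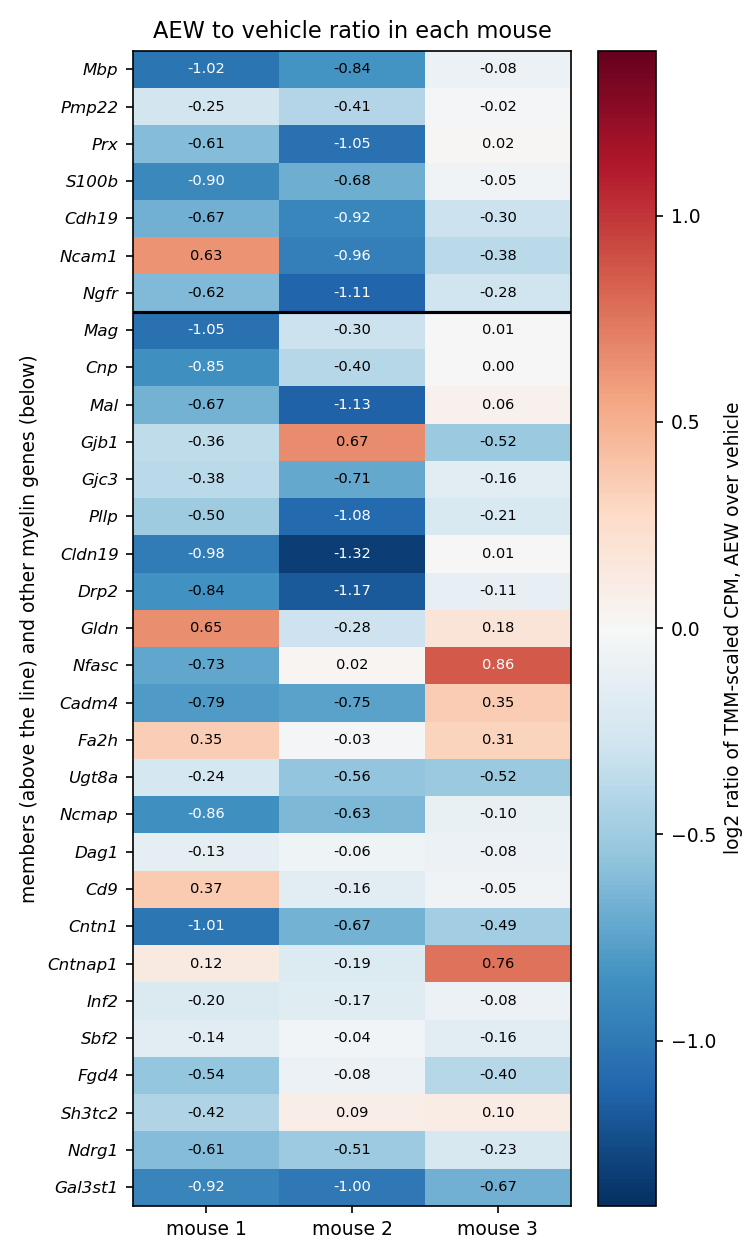
Log2 ratio of AEW over vehicle TMM-scaled CPM in each mouse (columns, number and colour) for the 7 genes (above the line) and other tested genes of myelin (below). Mbp, Prx, Mal, Cldn19 and Drp2 are between -0.61 and -1.32 in mice 1 and 2 and between -0.11 and 0.057 in mouse 3, and Gal3st1 is at -0.67 or below in all 3.

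Some other genes of myelin shared this pattern over the libraries, most closely that of Prx. For each of the 7, the 13924 other tested genes whose log2 CPM averaged 1 or more were ordered by the root mean square distance between log2 CPM profiles over the 6 libraries, each centred on its mean. The gene nearest to Prx was Mal, a proteolipid of myelin and of epithelial membranes, at a distance of 0.044, and the next was Pllp, which encodes plasmolipin of myelin, at 0.095. Drp2 was the 5th nearest to Prx, and Dhh, a signal that Schwann cells send to the nerve sheath, the 7th. Lgi4, a secreted factor needed for Schwann cells to form myelin, was the 2nd nearest to S100b, after Omd. Drp2 was the 6th nearest to Mbp, whose 2 nearest were Adamtsl2 and Grm4. The 2 nearest to Pmp22, Cdh19, Ncam1 and Ngfr, named under other observations, are also outside the lists of Schwann cell and myelin genes. Among the 7 themselves Mbp and S100b were the closest pair, at 0.11, followed by Cdh19 and Ngfr, at 0.13, and the 6 largest distances all involved Ncam1. Genes counted in the same libraries share their scaling, and 6 libraries from 3 mice give few values, so these distances describe the libraries and carry no test.

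AEW libraries of mice 1 and 2 below all vehicle libraries, with that of mouse 3 within or above their range, were found for Mbp and Prx of the 7 genes and for 10 of the 26 other myelin genes tested (38.5%), beside 4.72% of all tested genes. Among them were Mag, Cnp, Mal, Pllp and Cldn19. This description was chosen after the values were seen.

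**Figure D4:**
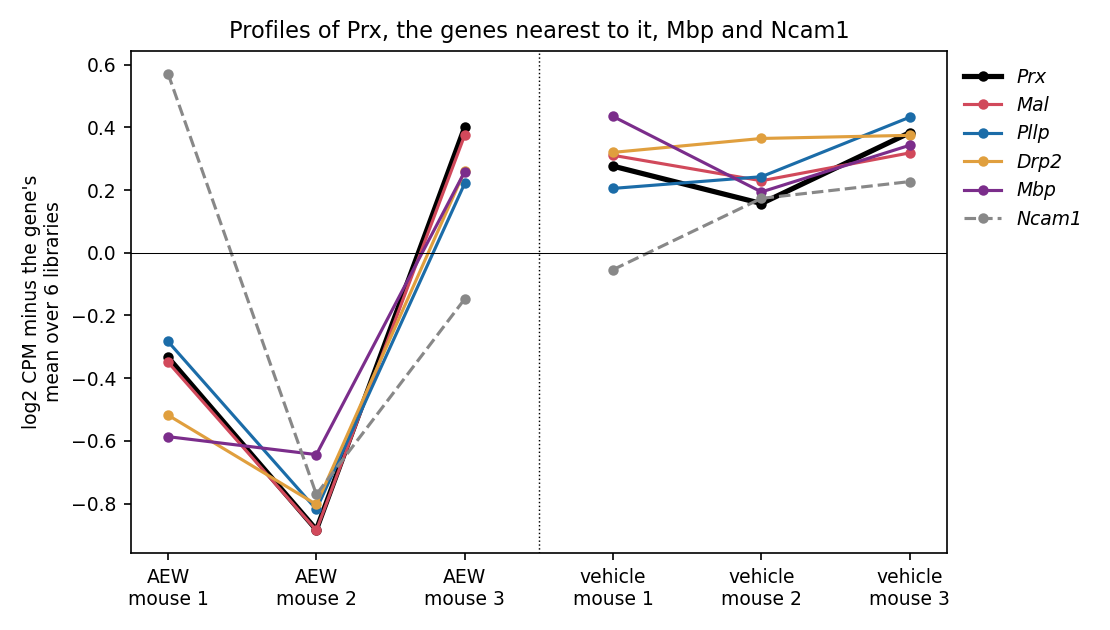
Log2 CPM minus the mean of the gene over the 6 libraries (vertical axis) in each AEW and vehicle library (horizontal axis) for Prx, the genes Mal, Pllp and Drp2 that are among the 5 nearest to it, Mbp and Ncam1 (dashed). The first 5 dip in AEW mice 1 and 2 and return to the vehicle level in AEW mouse 3, while Ncam1 is highest in AEW mouse 1.

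The promoters of Prx and of the 2 genes nearest to it are shown because both neighbours, Mal and Pllp, are themselves genes of myelin. Of the 7 genes, 4 had a promoter window in the RefSeq table used here. Each window holds 250 bases before and 50 after the annotated start, from RefSeq on GRCm38.p6, which is not the build of the expression table, and is written 5′ to 3′ on the strand of the gene. Capitals mark GGAATG, the core letters bound by TEAD factors, on either strand. Tead1 is one of the regulators described with the lists of Schwann cell genes.
Prx (chr7:27499074-27499373, plus strand): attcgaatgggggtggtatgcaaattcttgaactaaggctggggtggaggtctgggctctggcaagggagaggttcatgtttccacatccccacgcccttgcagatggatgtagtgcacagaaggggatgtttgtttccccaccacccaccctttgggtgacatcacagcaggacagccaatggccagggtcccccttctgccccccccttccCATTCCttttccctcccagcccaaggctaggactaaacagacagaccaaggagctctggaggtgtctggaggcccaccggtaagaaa
Mal (chr2:127656646-127656945, minus strand): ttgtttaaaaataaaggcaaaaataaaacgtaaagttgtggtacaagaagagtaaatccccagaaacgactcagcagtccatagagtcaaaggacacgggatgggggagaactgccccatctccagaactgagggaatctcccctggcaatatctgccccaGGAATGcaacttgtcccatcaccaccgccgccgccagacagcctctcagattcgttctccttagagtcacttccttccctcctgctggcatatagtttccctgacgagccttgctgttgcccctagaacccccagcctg
Pllp (chr8:94696193-94696492, minus strand): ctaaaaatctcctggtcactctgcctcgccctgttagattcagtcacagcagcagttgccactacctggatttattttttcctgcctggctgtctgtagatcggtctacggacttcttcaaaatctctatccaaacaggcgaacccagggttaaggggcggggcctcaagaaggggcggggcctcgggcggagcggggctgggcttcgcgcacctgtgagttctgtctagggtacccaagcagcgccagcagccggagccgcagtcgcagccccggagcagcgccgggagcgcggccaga
GGAATG was found 1 time in the Prx window, on the opposite strand, and 1 time in the Mal window, on the strand of the gene, and not in that of Pllp. Over all 32851 windows of this length 14.7% hold it. The SOX letters ACAAAG, held by 18.7% of all windows, and the EGR letters GCGTGGGCG, held by 0.612%, were searched on both strands and are in none of the 3. The windows of S100b and Ngfr, searched in the same way and not printed, hold none of these letters. For Pmp22 no result is given. These are matches of letters only.

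Beyond the 7, few genes of the Schwann cell and myelin lists passed the test, and most of the myelin genes were on the lower side. Over all tested genes 6.8% were called lower and 4.85% higher in this edgeR fit, the shares beside which the counts of each list stand. Of 26 tested genes of myelin proteins, lipids and inherited neuropathy, 1 was lower and 0 higher, with a median log2 fold change of -0.40 beside 0.014 for all genes, and 21 of the 26 had an estimate below 0. The 1 was Gal3st1, which sulphates galactosylceramide to make sulphatide, a lipid of myelin. It had 11.8, 11.2 and 15.0 CPM in AEW skin of mice 1, 2 and 3, against 22.5, 22.3 and 23.9 CPM in vehicle skin, with no overlap. Gal3st1 fell by 0.85 on the log2 scale (SE 0.14, edgeR adjusted p = 0.0159), and passed with the block too (adjusted p = 0.0326). It did not pass without vehicle mouse 1 or without vehicle mouse 3 (adjusted p up to 0.0853, log2 fold change -0.77 to -0.99 over the 6 fits with 1 library left out), and 5 genes of this list were called lower without AEW mouse 3. Mag, the myelin-associated glycoprotein next to the axon, had a log2 fold change of -0.43 (edgeR adjusted p = 0.365).

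Of 19 tested regulators of transcription in Schwann cells, 1 was higher and 2 lower, and the median log2 fold change was -0.019. Sox10, which defines the lineage and is also active in melanocytes, stood at 16.01, 11.2 and 20.6 CPM in AEW skin of mice 1, 2 and 3, against 19.8, 23.0 and 20.0 CPM in vehicle skin. Like Mbp it was low in AEW mice 1 and 2 and at the vehicle level in mouse 3 (log2 fold change -0.39, edgeR adjusted p = 0.261). Tead1, a factor of the Hippo pathway that many cell types carry, fell by 0.51 on the log2 scale (adjusted p = 0.0337), and Rxrg, a retinoid X receptor, fell by 0.75 (adjusted p = 0.045, and 0.0556 with the block). Tfap2a, a factor of neural crest and of keratinocytes, rose by a log2 fold change of 0.58 (adjusted p = 0.0479, and 0.117 with the block). Egr2, which drives myelination and is also induced in stressed keratinocytes, had a log2 fold change of 0.56, opposite in sign to the myelin genes (adjusted p = 0.14). These calls depended on single libraries: with 1 left out, Tfap2a and Rxrg passed in 0 of 6 fits, and Tead1 in 2, those without AEW mouse 1 and without AEW mouse 3.

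Among 17 tested ligands and receptors between axon and Schwann cell, 1 was higher and 0 lower. This was Nrg1, neuregulin, which sets the thickness of myelin when it comes from axons and which other cells also make. Nrg1 had 2.14, 4.36 and 3.41 CPM in AEW skin of mice 1, 2 and 3, against 0.546, 0.648 and 0.723 CPM in vehicle skin, and no library of one group reached the other. It was higher by 2.36 ± 0.34 on the log2 scale (SE, edgeR adjusted p = 0.0129), also with the block (adjusted p = 0.027). The call was lost without vehicle mouse 1 or vehicle mouse 3 (adjusted p up to 0.0705, log2 fold change 2.10 to 2.58 over the 6 fits), and on the log2(TPM + 1) scale, which understates the change of low genes, its difference was 0.92 (limma adjusted p = 0.0216). The list had 3 higher without AEW mouse 1 and 1 lower without AEW mouse 3. Its receptor gene Erbb3, which keratinocytes express as well, had a log2 fold change of 0.24 (adjusted p = 0.19), and Erbb2 one of 0.26 (adjusted p = 0.16).

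Of 18 tested neurotrophins, their receptors and related genes, 0 passed in either direction in edgeR, and 0 did with the block. An unadjusted p under 0.05 was found for 4 of them, all lower, where 16% of all tested genes were lower. DESeq2 called 3 lower, where 1500 of 15785 genes were. Without AEW mouse 1 edgeR called 1 lower. The 2 with the highest level, Rtn4 and Sort1, a partner of Ngfr, had log2 fold changes of -0.34 and -0.16 (edgeR adjusted p = 0.0637 and 0.403). Of 15 tested genes of Schwann cells that make no myelin or are immature, 3 were lower and 0 higher, with a median log2 fold change of -0.37. Art3, an ADP-ribosyltransferase relative that muscle also expresses, fell by 0.83 (adjusted p = 0.0159), Plekhb1 by 0.98 (adjusted p = 0.0411) and Kcna1, a potassium channel of axons, by 0.78 on the log2 scale (adjusted p = 0.0437, and 0.0726 with the block). The 3 lower became 0 without AEW mouse 2, without vehicle mouse 1 or without vehicle mouse 3, 1 without vehicle mouse 2, 2 without AEW mouse 1 and 4 without AEW mouse 3. The closest relatives of the 7 genes by protein family, 12 of them tested, gave 0 calls in edgeR in either direction and a median log2 fold change of -0.031. At an unadjusted p under 0.05 there were 3 higher and 3 lower, where 16% of all tested genes were lower and the share higher was not counted. DESeq2 called 3 in each direction, where 1351 genes were higher and 1500 lower of 15785. Without AEW mouse 1 edgeR called 1 lower. They include Emp1, of the Pmp22 family, at -0.13 (adjusted p = 0.544), and Ahnak, a large relative of Prx, at -0.55 (adjusted p = 0.0519).

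The tissue held skin and muscle. Krt14 of basal keratinocytes averaged 5480 CPM in AEW skin and 2799 CPM in vehicle skin, and Acta1 of skeletal muscle averaged 3898 CPM in AEW skin and 10237 CPM in vehicle skin. Several other cell types that express some of the 7 genes differed between the groups in their markers. Of 10 tested markers of muscle fibres 8 were lower and 0 higher, with summed levels from 12390 to 17926 CPM in AEW skin and from 28832 to 43244 CPM in vehicle skin. Of 11 tested markers of satellite cells and the neuromuscular junction 3 were lower and 0 higher, among them Musk, a kinase of the junction (log2 fold change -1.14, edgeR adjusted p = 0.04). Of 9 tested adipocyte markers 2 were lower and 0 higher, Cfd and Adipoq, with sums from 1391 to 1880 CPM in AEW skin and from 2144 to 3631 CPM in vehicle skin. By mouse, the sum of the muscle fibre markers in AEW skin was 0.358, 0.460 and 0.415 times that in vehicle skin in mice 1, 2 and 3, and that of the adipocyte markers 0.407, 0.877 and 0.455 times. For the 7 genes the same ratio of sums was 0.702, 0.640 and 0.954. In mouse 3 the sum of the 7 genes rested mostly on Pmp22 and Mbp, at 238 and 160 CPM in AEW skin. Ratios of single genes in mouse 3 ran from 0.770 for Ncam1, 0.813 for Cdh19 and 0.824 for Ngfr to 1.01 for Prx. The part of muscle or fat in the values of the 7 genes was not tested.

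Of the 10 Schwann cell markers 1 was lower, Cdh19, the member already reported above, and 0 were higher. Their sum ran from 363 to 569 CPM in AEW skin and from 464 to 518 CPM in vehicle skin. None of the 10 was at 0 in all libraries. Of 6 tested melanocyte markers 0 passed in edgeR, with sums from 62.0 to 263 CPM in AEW skin, the highest in mouse 1, and from 45.6 to 54.1 CPM in vehicle skin. At an unadjusted p under 0.05 there were 5 higher and 1 lower, where 16% of all tested genes were lower. The share of all tested genes higher at that cut was not counted. DESeq2 called 4 higher, where 1351 of 15785 genes were. Without AEW mouse 1 edgeR called 2 higher. Of 11 markers of sensory neurons 10 were in the deposited table, which lacks Scn10a. Their transcripts were scarce, since 3 of the 10 passed the filter on low counts. Of these Tubb3, a tubulin that other cells also make, rose by a log2 fold change of 2.20 (edgeR adjusted p = 0.00729), while Prph, Nefl, Nefm, Nefh, Calca and Tac1 each averaged under 1 CPM in both groups. Endothelial and pericyte lists each had 2 lower and 0 higher, of 10 and 8 tested, and the T cell list 1 lower and 0 higher of 6. Fibroblast and basal keratinocyte lists had 1 higher and 0 lower of 8 and 6 tested, the suprabasal list 2 higher and 0 lower of 7, and the macrophage list 0 of 7 in either direction (0 also at an unadjusted p under 0.05 and with DESeq2). With the mouse as a block 10 muscle fibre markers were lower, 1 satellite cell, 1 endothelial and 1 pericyte marker, and 0 of the Schwann cell, adipocyte and T cell lists; higher were 0 fibroblast, 1 basal and 1 suprabasal marker. Without vehicle mouse 1 the calls in the marker lists were 0 apart from Tubb3, Aqp4 and 3 muscle fibre markers lower, and without vehicle mouse 3 they were 0 apart from Tubb3, Aqp4 and 2 muscle fibre markers. Without AEW mouse 2 the lower calls were Aqp4, 3 muscle fibre markers and 1 satellite cell marker. There were 6 adipocyte and 6 endothelial markers lower without vehicle mouse 2. Of the 5 markers of central glia 1 was tested, Aqp4, which fast muscle fibres also express, and it fell by 1.501 on the log2 scale (edgeR adjusted p = 0.0109). Tubb3 and Aqp4 passed in all 6 fits with 1 library left out.

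**Figure D5:**
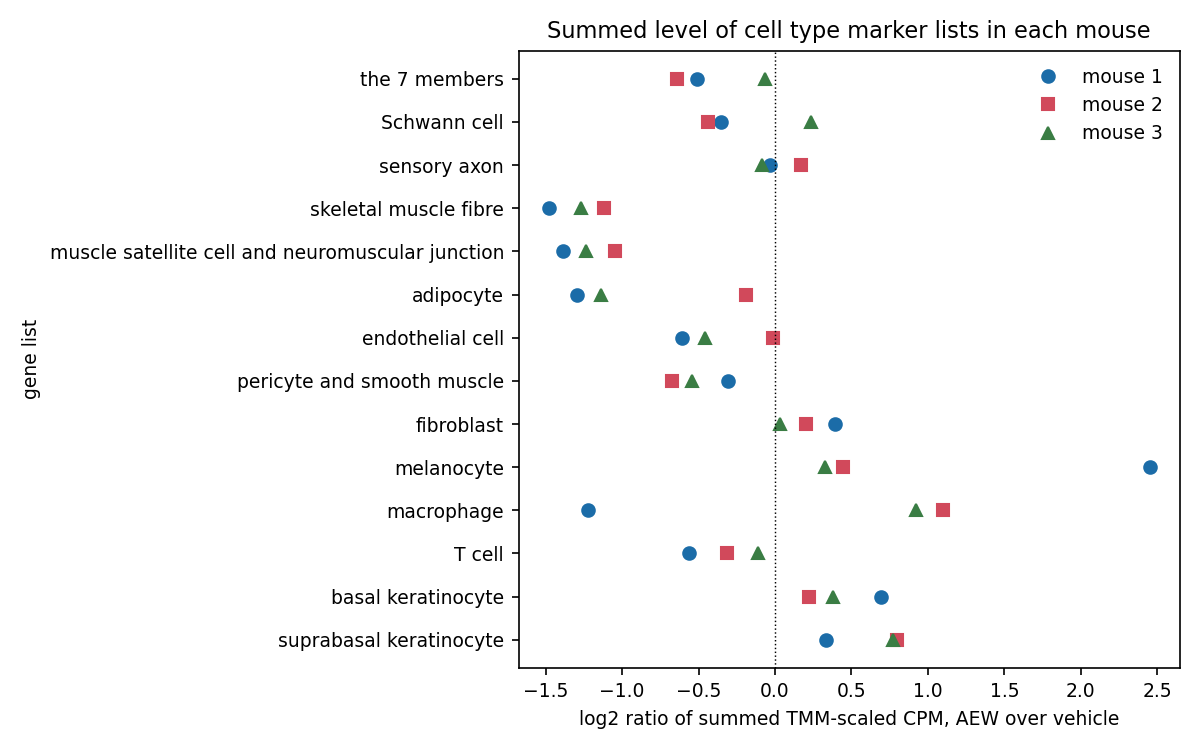
Log2 ratio of the summed TMM-scaled CPM in AEW over vehicle skin (horizontal axis) for the 7 genes and for 13 lists of cell type markers, with 1 symbol for each mouse. The muscle fibre list lies below -1.1 in all 3 mice, while the 7 genes and the Schwann cell markers lie below 0 in mice 1 and 2 and near or above 0 in mouse 3.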

How the data were processed

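RNA of cheek skin was poly(A)-selected, and single ends of 50 bases were read (per the labels' protocols). Per the file headers, the deposited table gives estimated counts, FPKM and TPM for 19309 genes in each of 6 libraries. HISAT and the GRCm39 build stand in the submitters' processing notes; counting tool, annotation and strand setting: not given in the sources used here. Deposited estimated counts, 18449145 to 19506462 per library, were rounded to whole numbers. The deposited FPKM values were not used, and the deposited TPM values set the order of levels between genes and served in an alternative test. Genes were kept by filterByExpr at a minimum count of 10 (15109, all 7 members among them), scaled by TMM (factors 0.973 to 1.05) and tested with edgeR 4.0.16 in R 4.3.3, group as the single term, with Benjamini-Hochberg adjustment over all tested genes at 0.05. Alternatives used limma 3.58.1, DESeq2 1.42.0 and other settings. The script was tested on simulated data.

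Both cheeks of a mouse carry 1 number in the labels, which pairs the libraries by animal. Across genes, the deviations of both cheeks of a mouse from their group means had correlations of -0.244, -0.165 and -0.246, and a second fit took the mouse as a block. Replicates were separate mice, and the counts of every pair of libraries in a group differed beyond sampling noise (lowest chi-square over its degrees of freedom 19.1). Members and lists were chosen with earlier results of these data known, so no list was tested. Apart from all 7 members and a few defining Schwann cell genes, of which some are not reported here, the text names from each list up to 6 genes past the threshold or, with none, the 2 with the highest level, and for each member the 2 nearest profiles; other genes were named after their values were seen.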

Additional observations from a re-analysis of the deposited data

How the results depend on the processing

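The count of members called lower, 1 in the reported edgeR fit, was 0 with the replicate block, 0 with library totals as the only scaling, 0 on the deposited TPM values with limma at either pseudocount (1 or 0.1), 2 with DESeq2, and 0 to 3 when 1 library was left out. Over all genes DESeq2 called 1500 of 15785 lower. The fit without AEW mouse 3, which gave the 3 members, called 654 of 15269 lower. It was 1 with DESeq2's size factors and without a filter on low counts, and no member was called higher under any alternative run. With both cheeks of 1 mouse left out, chosen after the data were seen, it was 0 in 5 of the 6 edgeR fits and 2 without mouse 1 with the replicate block, and with DESeq2 it was 1 without mouse 1, 0 without mouse 2 and 2 without mouse 3. Over all genes, 1027 lower and 733 higher became 588 and 300 with the replicate block (561 and 267 shared), 666 lower on TPM at either pseudocount, and 1351 higher with DESeq2. Leaving out 1 library gave 117 to 1041 lower and 23 to 1197 higher. Without mouse 1 and with the block there were 1588 lower and 1922 higher of 15163, without mouse 2 16 and 14 (279 and 112 with the block), and without mouse 3 0 and 0 in both edgeR fits. With DESeq2 there were 1027 lower and 1339 higher of 15541 without mouse 1, and 543 lower and 343 higher of 15594 without mouse 3. The log2 fold change of Ncam1 ran from -0.56 to 0.14 when 1 library was left out, positive without AEW replicate 2 (0.14), and without mouse 2 (0.16, 0.13 with the block and 0.17 with DESeq2), and at 0.00053 with DESeq2 without mouse 3, and the other 6 members kept a negative one under every alternative run. What moved these counts was not tested. Fits with libraries left out also rest on fewer of them. S100b rests on 89 to 156 estimated counts in each library, the fewest of the 7.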

Other observations

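Most of the nearest profiles belong to genes outside myelin. The tested gene nearest to Ngfr was Slc35f1, at a root mean square distance of 0.023 on the log2 scale over the 6 libraries, followed by Hsd17b14 at 0.054. Mbp was nearest to Adamtsl2 (0.071) and Grm4 (0.097), and S100b to Omd, a proteoglycan of connective tissue (0.040). Cdh19 was nearest to Sytl3 (0.071) and Hoxd3 (0.079), Pmp22 to D130037M23Rik (0.042) and Fam98c (0.047), and Ncam1 to Flrt1 (0.076) and Pdzrn3 (0.11). These distances, each the smallest among 13924 candidates over 6 libraries, are given as descriptions.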
